A study of Mus musculus and Sus scrofa with 12 samples.

Results

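The genes described here are 45 named chromatin regulators of the Polycomb and histone methylation systems, 45 of 45 of which were found among the protein-coding genes annotated in both mouse (21774 genes) and pig (20609 genes). They were taken from a list of gene names. Of the 45, 24 code for subunits of the Polycomb repressive complexes and 21 for other histone-modifying enzymes and their partners. The study mapped 3 histone marks in whole forelimb buds of wild-type mouse embryos at E11.5 and wild-type pig embryos at gestation day 23 (D23), obtained by natural mating, with no treatment in either group. The marks were H3K4me3, found at promoters, H3K27ac, found at active promoters and enhancers, and H3K4me1, found at enhancers and beside promoters. The assay was ChIPmentation, a chromatin immunoprecipitation in which a transposase adds the sequencing adapters. The labels name 2 samples per species and mark, 12 in all, and the design text gives littermates as the biological replicates and a single biological replicate for pig H3K4me1.

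Each species and mark is represented by 1 list of peak positions that carries no height, score or value per replicate, so the 6 lists give presence, position and width only. No spread between animals could be computed, no test between species was possible, and the depth behind each peak is unknown. Marked here means that at least 1 bp of a peak falls inside the window reaching 1 kb to either side of a transcription start site (TSS) annotated for the gene. An absent peak means that none was called there at an unknown depth. Species was confounded with everything that differed between the 2 sets of libraries, such as stage and, for H3K4me3 and H3K27ac, the read length at sequencing, and these cannot be told apart.

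Polycomb proteins keep developmental genes silent through 2 complexes. PRC2 methylates lysine 27 of histone H3 through EZH1 or EZH2, which work only together with EED and SUZ12, while PRC1 ubiquitylates histone H2A through RING1 or RNF2, bound to 1 of several PCGF proteins and, in the canonical form, to a CBX protein that reads the methylated lysine. The opposing enzymes of the KMT2 and SETD1 family methylate lysine 4 of histone H3 and share the subunits WDR5, ASH2L, RBBP5 and DPY30. In the limb bud, Polycomb complexes are known for holding the Hox clusters silent where they are not used, and Hox genes pattern the limb along its axes.

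The tissue label was checked against marker genes. H3K27ac lay at the TSS of 6 of 6 limb mesenchyme genes in mouse (Prrx1, Tbx5, Hand2, Twist1, Shox2, Msx1) and of 5 of 6 in pig, with none at PRRX1. Of genes of other cell types, blood genes had H3K27ac at 2 of 5 in mouse (Klf1, Tal1) and 0 of 4 in pig, endothelial genes at 0 of 4 in both, ectodermal genes at 1 of 5 and 1 of 3, and muscle precursor genes at 1 of 4 and 0 of 4. H3K4me3 lay at 5 of 5 blood, 4 of 4 endothelial, 5 of 5 ectodermal and 4 of 4 muscle precursor genes in mouse, and at 1 of 4, 1 of 4, 2 of 3 and 3 of 4 in pig. Liver genes had neither H3K4me3 nor H3K27ac in either species (0 of 4). A forelimb bud holds several cell types, and a mark that is present in a few cells cannot be told apart from a weak mark in all of them.

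Nearly all members carried the promoter mark. H3K4me3 lay at 45 of 45 members in mouse, against 65.0% of all coding genes, and at 44 of 45 in pig, against 65.0% there too. H3K27ac lay at 39 members in mouse, against 41.6% of coding genes, and also at 39 in pig, against 46.7%. Among coding genes with H3K4me3, the share with H3K27ac was 62.3% in mouse and 69.4% in pig, and the share with H3K4me1 75.3% and 78.9%. H3K4me1 lay within the same window at 37 members in mouse, against 54.7%, and at 35 in pig, against 61.3%. All 3 marks were present at 32 members in mouse and 30 in pig, where 31.6% and 35.0% of coding genes carried all 3. Named genes with an ortholog are marked more often than coding genes in general: over the 14946 genes with the same symbol in both annotations, H3K4me3 lay at 81.9% in mouse and 77.9% in pig, H3K27ac at 52.1% and 55.6%, and H3K4me1 at 68.9% and 72.4%.

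**Figure D1:**
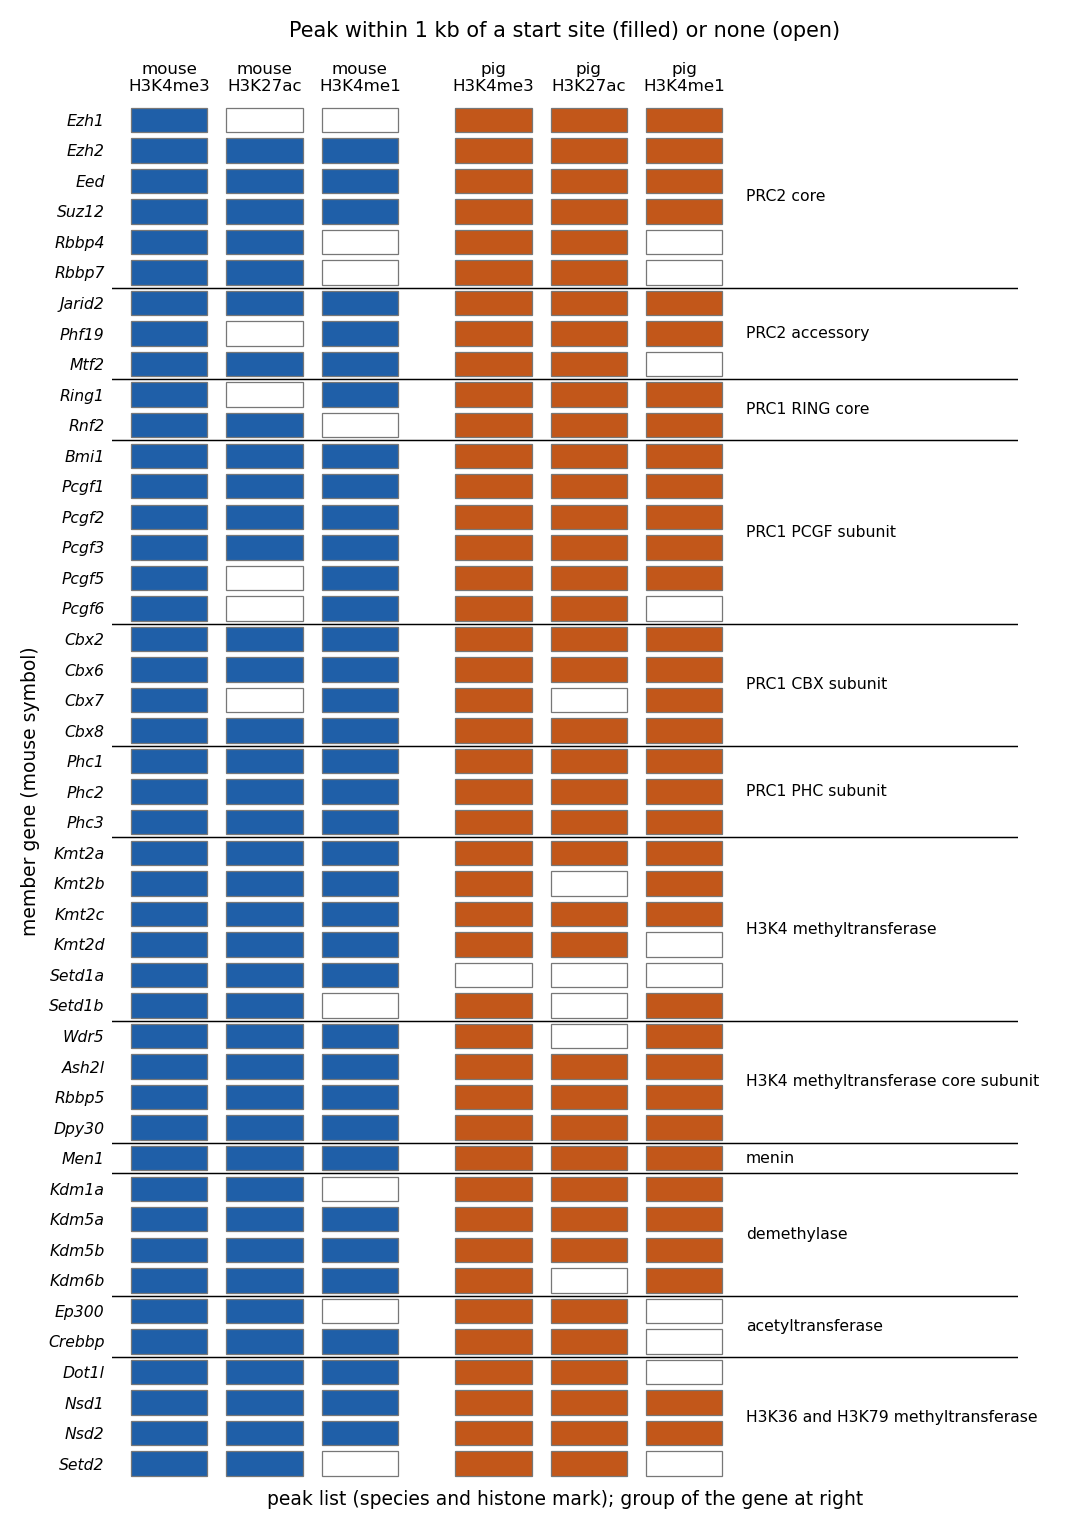
Each row is a member gene, grouped by role, and each column is 1 peak list (blue for mouse, orange for pig). A filled box means that a peak lay within 1 kb of a start site of the gene and an open box that none did. The H3K4me3 columns are filled in all 45 rows in mouse and 44 in pig, and the open boxes of the H3K27ac columns stand at 6 members in mouse and 6 in pig, of which Cbx7 is the shared one.

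The catalytic core of PRC2 was marked as active in both species except at 1 gene. Ezh2, the methyltransferase of dividing cells, had all 3 marks in mouse and pig, as did Eed, which binds the methylated histone and stimulates the enzyme, and Suz12, which holds the complex together. The H3K4me3 peak of Ezh2 was 4266 bp wide in mouse, percentile 85.7 among coding genes with H3K4me3, and 2609 bp in pig, percentile 84.0. At Suz12 it was 3413 bp (percentile 44.5) and 2034 bp (percentile 58.0), and at Eed 3958 bp (percentile 74.6) and 1866 bp (percentile 46.8). The histone chaperones Rbbp4 and Rbbp7, which also serve other complexes, had H3K4me3 and H3K27ac and no H3K4me1 in either species. The nearest H3K4me1 peak was 1289 bp from Rbbp4 in mouse and 1157 bp in pig, and 9.54 kb and 20.2 kb from Rbbp7.

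Ezh1, the EZH2 paralog that persists in cells that no longer divide, was the member with H3K4me3 alone in mouse. The gene lies on chr11:101191115-101226463 of GRCm38. Its H3K4me3 peak covered both annotated start sites and was 3315 bp wide (percentile 38.4), while the nearest H3K27ac peak was 2.88 kb away. That nearest peak, 3353 bp wide, lay upstream of the gene off any annotated start and on H3K4me1. In pig, EZH1 (chr12:20107744-20139764 of Sscrofa11.1) had all 3 marks, with an H3K4me3 peak of 1785 bp (percentile 40.9) and an H3K27ac peak of 1770 bp. The width rank of H3K4me3 at this gene was therefore close in the 2 species, while the acetylation call differed.

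The promoters of Ezh2 and Suz12 are shown because they share a sequence of the kind bound by E2F factors, regulators of the cell cycle. Each window runs from 250 bases before to 49 after the start base, with mouse windows from RefSeq's promoters on GRCm38.p6 and pig windows from RefSeq's genome of Sscrofa11.1. The start was the most 5′ one listed in mouse and the one shared by most transcripts in pig. The windows of a gene therefore need not be the same promoter. Capitals mark TTTGGCGC or TTTCCCGC on the printed strand. The windows are chr6:47594981-47595280 (minus strand) for mouse Ezh2, chr9:109384766-109385065 (plus) for pig EZH2, chr11:79992856-79993155 (plus) for mouse Suz12 and chr12:43032622-43032921 (minus) for pig SUZ12.
Ezh2 mouse: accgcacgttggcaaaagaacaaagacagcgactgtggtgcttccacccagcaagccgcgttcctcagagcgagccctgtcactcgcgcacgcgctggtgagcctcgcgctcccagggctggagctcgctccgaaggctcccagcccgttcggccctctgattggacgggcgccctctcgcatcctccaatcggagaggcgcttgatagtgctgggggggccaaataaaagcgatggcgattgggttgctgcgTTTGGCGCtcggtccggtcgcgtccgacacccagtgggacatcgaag
EZH2 pig: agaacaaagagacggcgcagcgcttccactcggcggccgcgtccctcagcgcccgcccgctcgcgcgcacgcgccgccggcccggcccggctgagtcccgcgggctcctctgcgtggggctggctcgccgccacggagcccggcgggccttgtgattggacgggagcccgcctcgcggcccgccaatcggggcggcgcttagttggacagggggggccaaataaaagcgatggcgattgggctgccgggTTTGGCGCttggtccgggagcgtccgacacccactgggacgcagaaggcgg
Suz12 mouse: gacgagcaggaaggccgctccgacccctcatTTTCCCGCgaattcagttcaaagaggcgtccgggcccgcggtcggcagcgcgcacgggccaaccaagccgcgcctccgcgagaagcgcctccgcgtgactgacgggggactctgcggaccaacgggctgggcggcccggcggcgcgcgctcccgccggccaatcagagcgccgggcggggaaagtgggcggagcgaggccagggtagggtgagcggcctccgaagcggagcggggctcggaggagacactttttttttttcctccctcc
SUZ12 pig: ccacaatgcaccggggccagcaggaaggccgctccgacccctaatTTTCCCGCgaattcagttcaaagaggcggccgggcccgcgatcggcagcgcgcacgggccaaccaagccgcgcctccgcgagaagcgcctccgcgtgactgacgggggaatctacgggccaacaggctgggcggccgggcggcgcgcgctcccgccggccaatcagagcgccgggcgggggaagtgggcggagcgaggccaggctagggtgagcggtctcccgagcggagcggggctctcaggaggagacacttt
In Ezh2 the match began at base 3 after the start in mouse and 1 base before the start in pig (position -1). In Suz12 it began at -219 in mouse and -205 in pig. The Suz12 windows aligned over 282 bases with 94.3% identity and the Ezh2 windows over 293 bases with 73.0%. Searched on both strands, these 2 sequences were found in 3 of the 36 member promoters that RefSeq's mouse table held (Ezh2, Suz12, Phf19) and in 3 of 45 pig windows (EZH2, SUZ12, NSD2). They occurred in 2.10% of all mouse and 2.26% of all pig coding promoters of this length, and in 2.98% and 3.12% of those with H3K4me3. A match is a run of letters and no evidence of binding.

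The accessory subunits of PRC2 direct the complex to its targets. Jarid2 had all 3 marks in both species and is described with the distal peaks. Mtf2, which binds unmethylated CpG-rich DNA, had all 3 marks in mouse and lacked H3K4me1 in pig, where the nearest H3K4me1 peak was 43.1 kb away. Phf19, its paralog, had 2 H3K4me3 peaks at its start sites in mouse, of 3758 bp (percentile 65.1) and 3281 bp, each with H3K4me1 and neither with H3K27ac. The nearest mouse H3K27ac peak was 34.5 kb away. In pig, PHF19 had a 2817 bp H3K4me3 peak (percentile 89.2) that carried an H3K27ac peak of 1278 bp at 1 of its 2 start sites. The mouse promoter sequence of Phf19 matched the pig locus with 90.1% identity over 304 bases, 0.227 kb from the pig start, so the same stretch was compared.

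The RING proteins are the ubiquitin ligases of PRC1. Rnf2 had H3K4me3 and H3K27ac in both species, with H3K4me1 at 1.47 kb from the start in mouse and within the window in pig. Pig RNF2 has 10 annotated starts over 112 kb. Its outermost start had H3K4me3 (1290 bp) and H3K4me1 without H3K27ac, and the start about 52.4 kb inside the record had H3K4me3 (1744 bp) with H3K27ac (1704 bp). Ring1, a gene of 3.89 kb on mouse chr17:34020792-34024680, had H3K4me3 (2919 bp, percentile 18.5) and H3K4me1 and no H3K27ac in mouse, where the nearest H3K27ac peak was 4.58 kb away. Pig RING1 had all 3 marks, with H3K4me3 of 2060 bp (percentile 59.5) and H3K27ac of 2155 bp.

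The PCGF proteins define the variants of PRC1. Bmi1 (PCGF4), Pcgf1, Pcgf2 and Pcgf3 had all 3 marks in both species. Pcgf2, also known as MEL18, had the widest H3K4me3 peak of all members in mouse, 7479 bp (percentile 99.8), a peak that also covered the start of the proteasome gene Psmb3. Its pig peak of 3309 bp (percentile 96.2) covered no second coding gene. Pcgf5 and Pcgf6, which belong to variant complexes outside the canonical form, had H3K4me3 and H3K4me1 without H3K27ac in mouse.

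Pcgf5 stood furthest from any acetylation. In mouse (chr19:36348329-36460970) it had 2 promoter H3K4me3 peaks, of 3496 bp (percentile 49.7) at the outer start and 3005 bp at a start about 61.9 kb inside, and the nearest H3K27ac peak was 143 kb from any of its starts. In pig (chr14:102827140-102961862) the same arrangement was found with acetylation: H3K4me3 peaks of 2432 bp (percentile 78.1) and 1521 bp, centred 2.41 and 64.6 kb inside the record, each overlapped by an H3K27ac peak (1751 and 1148 bp). With the 5′ end of the pig record as the only start, no H3K27ac was called at PCGF5. The 2 promoters were about equally far apart in both species, and both differed between the species in the same way. The promoters are shown because their sequences align closely although the acetylation calls differ. The windows are chr19:36348079-36348378 (plus) in mouse and chr14:102829123-102829422 (plus) in pig, drawn as for Ezh2, and capitals mark CCAAT, the sequence read by the factor NF-Y.
Pcgf5 mouse: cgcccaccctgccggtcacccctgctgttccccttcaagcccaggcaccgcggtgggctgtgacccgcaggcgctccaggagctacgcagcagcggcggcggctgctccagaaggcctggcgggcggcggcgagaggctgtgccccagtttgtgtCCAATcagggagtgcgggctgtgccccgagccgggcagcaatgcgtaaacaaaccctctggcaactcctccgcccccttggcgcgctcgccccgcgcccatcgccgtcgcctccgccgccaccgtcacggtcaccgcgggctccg
PCGF5 pig: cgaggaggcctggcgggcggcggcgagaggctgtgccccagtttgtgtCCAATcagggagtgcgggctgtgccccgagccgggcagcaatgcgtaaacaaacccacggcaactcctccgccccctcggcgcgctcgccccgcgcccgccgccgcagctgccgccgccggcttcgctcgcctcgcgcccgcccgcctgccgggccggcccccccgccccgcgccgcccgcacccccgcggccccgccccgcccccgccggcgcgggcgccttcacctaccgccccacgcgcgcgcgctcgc
The windows aligned over 166 bases with 94.0% identity, and CCAAT began at -95 in mouse and -202 in pig because the annotated starts differ. CCAAT, on either strand, was found in 13 of 36 mouse and 13 of 45 pig member windows, shares of 36.1% and 28.9%, against 39.2% and 35.4% of all coding promoters. The mouse window matched the pig locus over 248 bases with 85.9% identity, and there pig had H3K4me3 and H3K27ac.

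Pcgf6 (mouse chr19:47033617-47050939) had an H3K4me3 peak of 3986 bp (percentile 75.9), with the nearest H3K27ac peak 37.1 kb away. Pig PCGF6 had the narrowest H3K4me3 peak of the members, 1133 bp (percentile 5.53), with an H3K27ac peak of 830 bp. That H3K27ac call was lost when the wider 50% of peaks were used or when 50% of the window had to be covered, and the H3K27ac calls of the species then did not differ at this gene. The pig record spans 225 kb against 17.3 kb in mouse, and the mouse promoter sequence found no match there, and whether the annotated starts are the same promoter was not tested.

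CBX proteins read H3K27me3 and compact chromatin, and the 4 members form 2 neighbouring pairs. Cbx2 and Cbx8 lie 5.03 kb apart, tail to tail, on mouse chr11 (chr11:119023019-119031275 and chr11:119036303-119040913) and 5.81 kb apart on pig chr12. Both genes had all 3 marks in both species. The Cbx2 H3K4me3 peak was 3658 bp in mouse (percentile 59.2) and 2730 bp in pig (percentile 87.2), and that of Cbx8 was 3625 bp (percentile 57.3) and 2542 bp (percentile 81.9). H3K27ac at mouse Cbx8 was a peak of 4004 bp that began 479 bp before the start and ran upstream, while at pig CBX8 a 2806 bp peak covered the start. Pig CBX2 also had 2 distal H3K27ac peaks, of 599 and 1487 bp at 7.83 and 10.4 kb upstream, and mouse Cbx2 had 0.

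Cbx7 and Cbx6 form the other pair, 81.5 kb apart on mouse chr15 and 90.1 kb apart on pig chr5, in the same orientation. Cbx6 had all 3 marks in both species. Cbx7, a subunit known from stem cells, was the only member without H3K27ac at a start site in both species. Its mouse record (chr15:79915804-79971143) has 7 starts, and the 4 that were marked shared an H3K4me3 peak of 1778 bp, the narrowest of the members (percentile 1.52), and an H3K4me1 peak of 5402 bp. Pig CBX7 (chr5:9070312-9090467) had H3K4me3 of 2004 bp (percentile 56.1) and H3K4me1 of 5282 bp. The surroundings differed. In mouse, 2 H3K27ac peaks lay inside the Cbx7 record, 1 of them 1.69 kb from a start on a further H3K4me3 peak and 1 of 5386 bp at 18.5 kb upstream of the nearest start, on H3K4me1. In pig the nearest H3K27ac peak was 14.4 kb away, outside the gene.

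**Figure D2:**
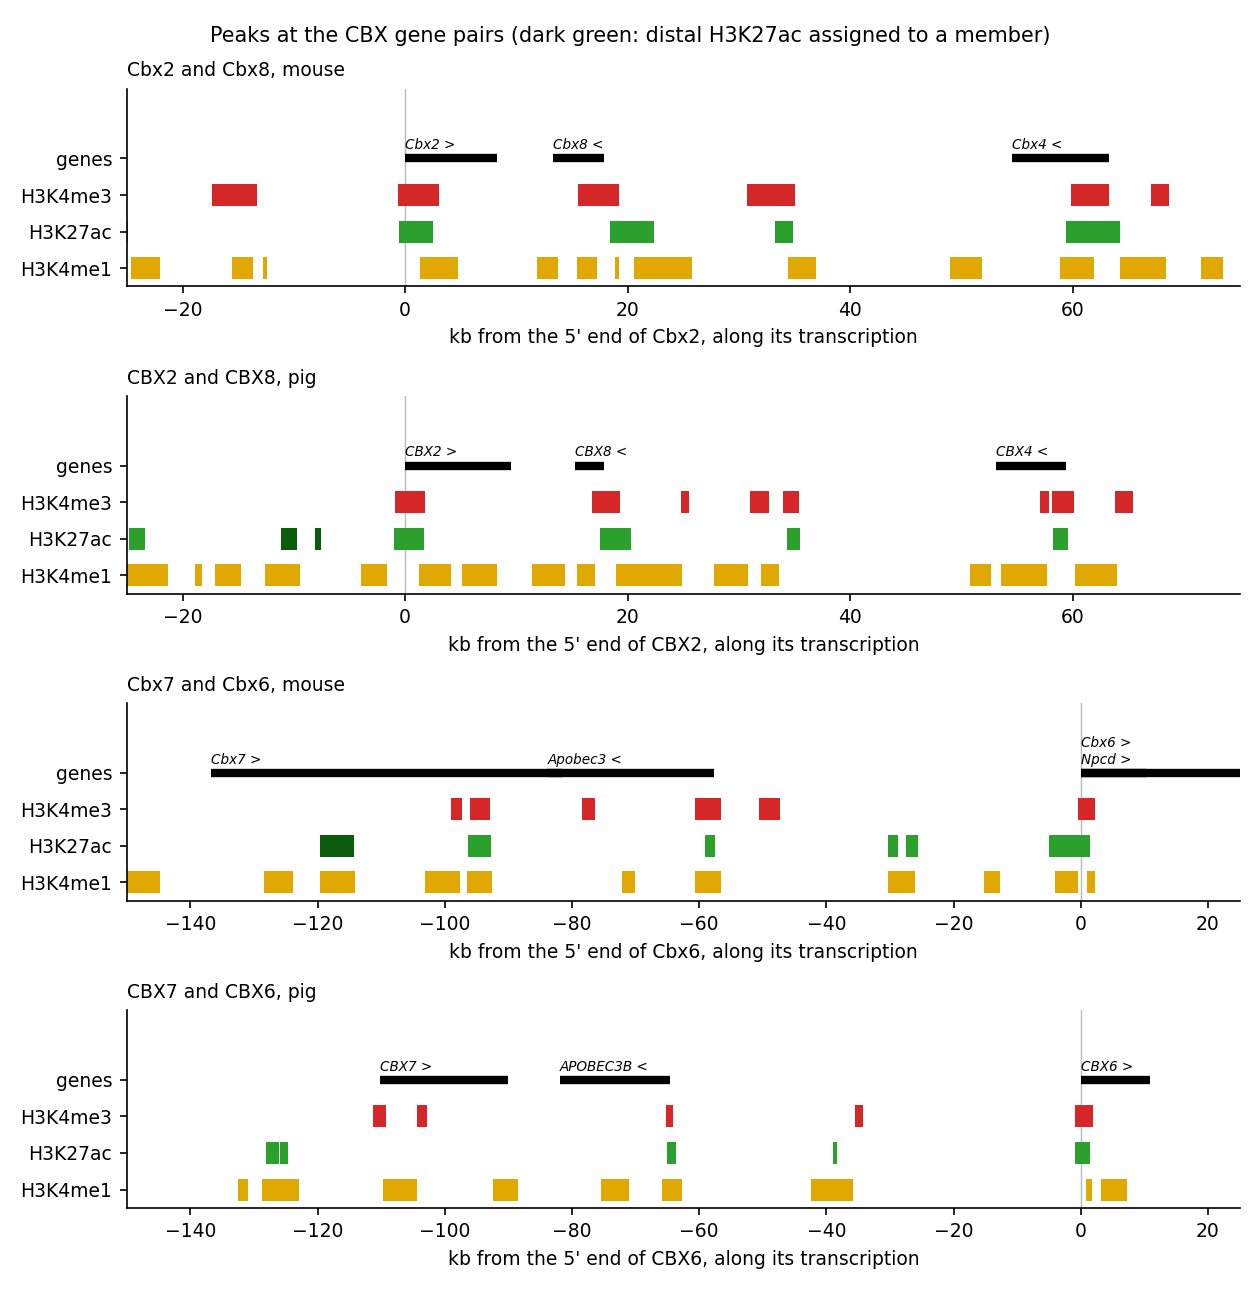
Peaks of the 3 marks (red H3K4me3, green H3K27ac, yellow H3K4me1) and coding genes (black, with the direction of transcription) are drawn against the distance in kb from the 5′ end of Cbx2 or Cbx6. Green boxes lie over the starts of Cbx2 and Cbx6 and over or beside the start of Cbx8 in both species, and no green box lies over the red box at the 5′ end of pig CBX7 or over the narrower red box of mouse Cbx7 (from -99.0 to -97.3 kb). Dark green boxes are distal peaks assigned to a member.

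The promoters of Cbx8 are shown because both hold the same element at a similar distance from the start. The windows are chr11:119040864-119041163 (minus) for mouse Cbx8 and chr12:2562169-2562468 (plus) for pig CBX8. Capitals mark TGACGTCA, the cyclic AMP response element.
Cbx8 mouse: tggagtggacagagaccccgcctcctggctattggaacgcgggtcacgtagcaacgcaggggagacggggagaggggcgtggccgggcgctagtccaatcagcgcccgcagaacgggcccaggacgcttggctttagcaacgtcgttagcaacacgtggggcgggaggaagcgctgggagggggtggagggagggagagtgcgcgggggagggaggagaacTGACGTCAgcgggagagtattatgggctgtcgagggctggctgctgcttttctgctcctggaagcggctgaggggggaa
CBX8 pig: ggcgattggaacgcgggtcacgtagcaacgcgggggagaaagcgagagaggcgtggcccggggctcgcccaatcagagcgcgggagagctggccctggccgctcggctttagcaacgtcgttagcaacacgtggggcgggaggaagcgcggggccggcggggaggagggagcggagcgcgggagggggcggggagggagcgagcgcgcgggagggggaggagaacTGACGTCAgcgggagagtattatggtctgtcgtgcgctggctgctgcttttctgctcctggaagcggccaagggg
TGACGTCA began at -29 in mouse Cbx8 and -25 in pig CBX8, and in the other member windows it was not found in either species. It occurred in 2.33% of mouse and 2.16% of pig coding promoters. The Cbx8 windows aligned over 300 bases with 80.3% identity.

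The polyhomeotic proteins PHC1, PHC2 and PHC3 polymerise and cluster PRC1. All 3 genes had all 3 marks in both species. Phc3 had an H3K4me3 peak of 3213 bp in mouse (percentile 32.6) and of 1336 bp in pig (percentile 13.2), the second narrowest in pig. Phc2 used 2 promoters that differed in mouse. The outer one had H3K4me3 (3232 bp) and no H3K27ac, while the inner one, centred 74.0 kb inside the gene, had H3K4me3 (3590 bp) with H3K27ac (4101 bp). In pig both the outer promoter (H3K4me3 1397 bp, H3K27ac 1714 bp) and an inner one centred 86.6 kb inside (2598 and 1775 bp) were acetylated. Counted by gene, Phc2 has the same state in both species, and counted by promoter it does not.

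The methyltransferases of H3K4 were all acetylated in mouse, and 3 of the 6 were not called so in pig. Kmt2a, Kmt2c and Kmt2d had H3K4me3 and H3K27ac in both species. Kmt2b, which methylates promoters of developmental genes, had all 3 marks in mouse, with H3K4me3 of 3942 bp (percentile 73.9) and H3K27ac of 2472 bp. In pig, KMT2B (chr6:45146863-45166854) had one of the widest H3K4me3 peaks of the members, 3474 bp (percentile 97.5), with H3K4me1, and its nearest H3K27ac peak was 36.6 kb away. The mouse H3K27ac call at Kmt2b was lost when the wider 50% of peaks were used, and the H3K27ac calls of the species then did not differ. Setd1b had H3K4me3 and H3K27ac in mouse, where an acetylated region of 6315 bp ended 24 bp before the start and extended upstream. Its H3K4me3 peak (3381 bp, percentile 42.5) was shared with the neighbouring gene Rhof. In pig, SETD1B had H3K4me3 (2262 bp, percentile 70.3) and H3K4me1, with the nearest H3K27ac 2.96 kb away.

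Setd1a was the only member that lacked H3K4me3 in a species, namely pig, and the annotated pig start bears on that call. Mouse Setd1a (chr7:127777389-127800122) had all 3 marks, with H3K4me3 of 3517 bp (percentile 51.0). Pig SETD1A (chr3:17463768-17490397) had none within 1 kb of its single annotated start, the nearest peaks being H3K4me3 at 1.18 kb and H3K27ac at 1.20 kb. The pig start lies in sequence with 50% GC and an observed over expected CpG ratio of 0.058, unlike the mouse promoter (73.7% and 0.866). The mouse promoter sequence matched pig chr3:17487816-17488110, inside the pig gene and 2.43 kb from its annotated start, with 88.1% identity over 295 bases. At that stretch pig had H3K4me3, H3K27ac and H3K4me1. Measured at the matching sequence, Setd1a therefore carried the same 3 marks in both species.

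The subunits shared by these methyltransferases were uniform in mouse. Wdr5, Ash2l, Rbbp5 and Dpy30 had all 3 marks there, with H3K4me3 widths from 3808 to 4021 bp. In pig Ash2l, Rbbp5 and Dpy30 had all 3. WDR5, a histone-binding scaffold, had H3K4me3 of 3285 bp (percentile 95.9) and H3K4me1 in pig, with the nearest H3K27ac 4.66 kb away. That peak, 2154 bp wide and on H3K4me1, lay upstream and was assigned to WDR5 as a distal peak. Pig DPY30 had a narrow H3K4me3 peak (1417 bp, percentile 17.4) against 3990 bp (percentile 76.0) in mouse. Men1, which codes for the scaffold menin, had all 3 marks in both species with narrow H3K4me3 (3134 bp, percentile 28.5, and 1634 bp, percentile 30.8).

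Demethylases remove the same marks. Kdm1a, Kdm5a and Kdm5b, which act on H3K4, had H3K4me3 and H3K27ac in both species, and Kdm1a differed in H3K4me1 (nearest peak at 1.10 kb in mouse, within the window in pig). Kdm6b, which removes the PRC2 mark, has 10 annotated starts in mouse and 1 in pig. Mouse Kdm6b had 2 promoter H3K4me3 peaks (4473 bp, percentile 90.7, and 3394 bp) and 3 H3K27ac peaks, centred 1.92, 5.36 and 9.84 kb inside the gene. Pig KDM6B had a 2958 bp H3K4me3 peak (percentile 91.9) at its start without H3K27ac, and its nearest H3K27ac peak lay 4.40 kb away. The number of starts at which a peak could be counted thus differed between the species for this gene. With the 5′ end of each record as the only start, H3K27ac was still called at mouse Kdm6b and not at pig KDM6B.

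The acetyltransferases and the writers of other methyl marks had H3K4me3 and H3K27ac in both species. Ep300 and Crebbp write H3K27ac itself. Ep300 lacked H3K4me1 in both species, with the nearest peak at 1.08 kb in mouse and 1.00 kb in pig, and Crebbp lacked it in pig at 1.15 kb. Nsd1, Nsd2 and Setd2 methylate H3K36 and Dot1l methylates H3K79. Nsd1 and Nsd2 had all 3 marks in both species, Setd2 had no H3K4me1 in either (nearest at 1.02 and 1.20 kb), and Dot1l had it in mouse and not in pig (1.29 kb).

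Between the species, 29 of 45 members had the same state of all 3 marks, against 48.8% of the 14946 orthologs. H3K4me3 was present in both at 44 members (74.7% of orthologs) in mouse alone at Setd1a (7.17%) and in pig alone at 0 (3.15%). H3K27ac was present in both at 34 members (42.5%), in mouse alone at 5 (9.57%), in pig alone at 5 (13.1%) and in neither at Cbx7. H3K4me1 was present in both at 31 (54.9%), in mouse alone at 6 (13.9%; Mtf2, Pcgf6, Kmt2d, Setd1a, Crebbp, Dot1l), in pig alone at 4 (17.4%; Ezh1, Rnf2, Setd1b, Kdm1a) and in neither at 4 (Rbbp4, Rbbp7, Ep300, Setd2). These calls depended on the annotated starts. At the pig sequence matching the mouse promoter, H3K4me1 was called for Setd1a and for Kmt2d, whose match lay 1.30 kb from the pig start. It was not called there for Eed, Jarid2, Bmi1, Pcgf2, Phc1 and Kmt2c, which count as marked in both species.

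H3K27ac was missing at 6 of 45 members in each species, against 37.7% of mouse and 30.6% of pig coding genes with H3K4me3. The pig count includes SETD1A, which also lacked H3K4me3, and among the 44 pig members with H3K4me3 it was missing at 5. In mouse all 6 code for Polycomb subunits (Ezh1, Phf19, Ring1, Pcgf5, Pcgf6, Cbx7), 6 of 24, and none of the 21 other members lacked it. In pig 1 of 24 Polycomb members lacked it (CBX7) and 5 of the 21 others did (KMT2B, SETD1A, SETD1B, WDR5, KDM6B). This split by complex was drawn after the values were seen and was given no test. It did not hold under every setting: other mouse members without H3K27ac became 3 with the 5′ end as the only start (Kmt2d, Ash2l, Dpy30), 5 with the wider 50% of peaks and 1 with a covered window (Setd1b), and pig Polycomb members without it became 3, 2 and 2. It also depended in part on the annotated starts. When the marks were read in pig at the sequence matching the mouse promoter instead, 32 of the 36 promoters with a mouse sequence could be placed, and H3K4me3 lay at 32 and H3K27ac at 31 of them. Of the 20 Polycomb promoters so placed 1 lacked H3K27ac (Cbx7), and of the 12 others 0 did, where at the annotated starts of the same genes 1 Polycomb member (CBX7) and 1 other (SETD1A) had lacked it. Kmt2b, Setd1b and Kdm6b were not among the 36 and Wdr5 was not matched, so the pig calls at those 4 were not tested in this way. Of the mouse genes without H3K27ac, Phf19, Ring1, Pcgf5 and Cbx7 were placed in pig, and the first 3 had H3K27ac there.

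Where mouse lacked H3K27ac, the mark was near at some genes and far at others. The nearest peak was 1.69 kb from Cbx7, 2.88 kb from Ezh1 and 4.58 kb from Ring1, and 34.5 kb from Phf19, 37.1 kb from Pcgf6 and 143 kb from Pcgf5. In pig it was 1.20 kb from SETD1A, 2.96 kb from SETD1B, 4.40 kb from KDM6B and 4.66 kb from WDR5, and 14.4 kb from CBX7 and 36.6 kb from KMT2B.

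H3K4me3 was present at nearly all members and its width varied widely among them. Widths are compared as percentiles, since mouse peaks were wider for genes in general: coding genes with H3K4me3 had a median of 3502 bp in mouse against 1913 bp in pig. Member medians were 3804 bp (percentile 67.4) in mouse and 2296 bp (percentile 72.2) in pig. The widest 20% held 11 of 45 members in mouse and 17 of 44 in pig, where the definition puts 20.0% of marked genes. In mouse the widest were Pcgf2 (7479 bp), Jarid2 (5231 bp, percentile 97.2) and Kmt2d (4929 bp, percentile 95.7), and the narrowest Cbx7 (1778 bp), Cbx6 (2701 bp, percentile 11.08) and Dot1l (2887 bp, percentile 17.1). In pig the widest were KMT2A (4234 bp, percentile 99.7), KMT2D (3931 bp, percentile 99.2) and KMT2B (3474 bp, percentile 97.5), all large methyltransferases of the same family, and the narrowest PCGF6 (1133 bp), PHC3 (1336 bp) and DPY30 (1417 bp).

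**Figure D3:**
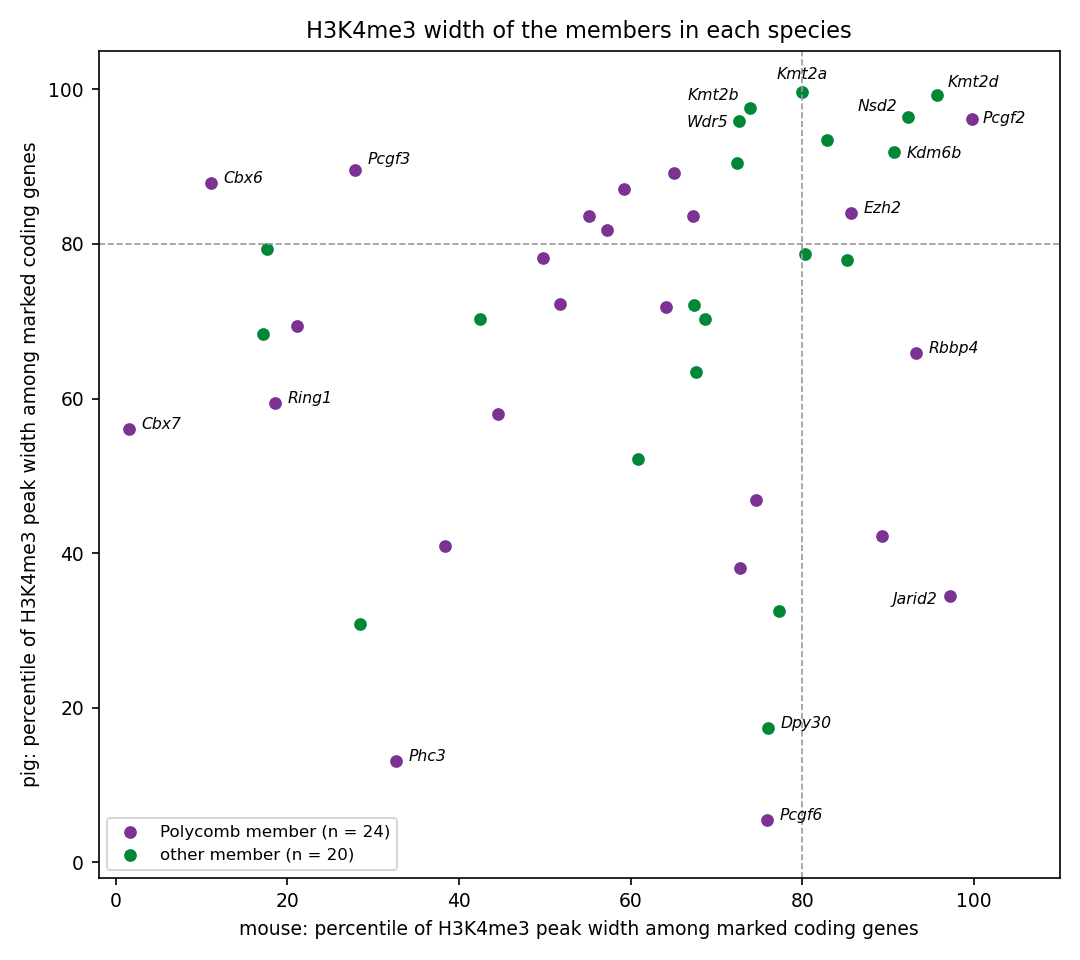
Each point is 1 of the 44 members with H3K4me3 in both species, placed by the percentile of its H3K4me3 width among marked coding genes in mouse (x axis) and pig (y axis). Dashed lines mark the lower edge of the widest 20%. Kmt2d, Pcgf2, Nsd2 and Kdm6b lie in the upper right corner, Cbx7 at the far left, and Jarid2 at the lower right, among the widest 20% in mouse and not in pig.

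The order of widths was only loosely shared. Spearman's rho between the species was 0.22 over the 44 members and 0.32 over the 11167 orthologs with H3K4me3 in both, given as descriptions. The widest 20% in both species held 6 of 44 members (Ezh2, Pcgf2, Kmt2d, Kdm6b, Nsd1, Nsd2), against 7.92% of the 11167 orthologs. Jarid2 stood at percentile 97.2 in mouse and percentile 34.4 in pig, where separate peaks were centred 0.84 and 4.04 kb from its 5′ end. Cbx6 went the other way, from percentile 11.08 to percentile 87.9. The pig peak was 0.656 times as wide as the mouse peak in the median member, against 0.557 times in the median ortholog, and it was wider in pig in absolute terms at 3 members (Cbx7, Cbx6, Kmt2a).

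Few members shared their promoter peak with a neighbour. The H3K4me3 peak also covered the start of another coding gene at 6 of 45 members in mouse, against 19.3% of genes with H3K4me3, and at 2 of 44 in pig, against 20.7%. Rbbp4 shared it with Zbtb8os and Setd1b with Rhof in both species. The mouse cases were completed by Pcgf2 with Psmb3, Cbx6 with Npcd, Kdm5a with Ccdc77 and Kdm5b with Mgat4e. At Cbx6 the partner Npcd starts at the same position and runs over Cbx6, so this peak cannot be assigned to either gene.

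H3K4me1 lay beside the promoters more than on them. A peak covered a start itself at 8 of the 37 marked members in mouse (41.3% of coding genes with H3K4me1 in the window) and at 9 of 35 in pig (45.1%). From the start to the peak the median distance for members was 533 bp (mouse) and 526 bp (pig), and for coding genes 306 and 180 bp. All members with H3K4me1 also had H3K4me3, which these coding genes need not have. Coding genes with both marks were not compared, so a difference particular to the members is not shown. Some calls lay close to the limit of the window. Just inside it were mouse Kmt2c at 972 bp and pig SETD1B at 987 bp, and just outside pig EP300 at 1002 bp and mouse Setd2 at 1025 bp, so the H3K4me1 calls at these genes turn on a few base pairs.

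Like coding genes in general, most members had no distal H3K27ac peak. A distal peak is one outside 1 kb of every annotated start and off H3K4me3, given to the nearest coding start within 500 kb. In mouse 13 of 45 members had at least 1, against 24.7% of coding genes, with 23 peaks in all. In pig 14 did, against 28.8%, with 39 peaks. The median was 0 for members and for all coding genes in both species, and the mean per gene was 0.511 for members and 0.453 for coding genes in mouse, and 0.867 and 0.751 in pig. Pig members had more peaks and less acetylated length, 48.0 kb against 65.0 kb in mouse, so the direction of the difference between species turns with the measure. H3K4me1 overlapped 12 of the 23 mouse and 28 of the 39 pig peaks, and 5 and 14 of these lay at Jarid2 alone. The share over all distal H3K27ac peaks was not computed. Neither these counts nor those by gene below therefore show a trait of the members.

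The distal peaks were concentrated at Jarid2. This gene, whose product recruits PRC2 and is needed for development of several organs, had 6 distal peaks in mouse (21.8 kb in all) and 17 in pig (17.7 kb), the highest number of any member in either species. It also has the longest neighbourhood to collect from: the coding starts on its 2 sides lie 1162 kb apart in mouse and 1353 kb in pig, where the median member has 96.9 and 108 kb. All 6 mouse peaks lay upstream of the gene, from 20.2 to 444 kb, with widths from 2444 to 5065 bp, and 5 of them overlapped H3K4me1. In pig 10 lay upstream of the gene between 69.3 and 425 kb, 6 inside it and 1 beyond its end. Within 100 kb, 1 of the mouse and 8 of the pig peaks remained. The nearest start is an assumption about the target that these lists cannot test.

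Phc2 came next, with 3 distal peaks in mouse (11.54 kb) and 6 in pig (9.55 kb). The 3 mouse peaks lay inside the gene, between 15.4 and 83.8 kb from its 5′ end. In pig 5 lay inside and 1 was 20.7 kb upstream, and 6 of 6 overlapped H3K4me1. The remaining mouse members had 2 at most (Eed, Rnf2 and Dpy30), and the remaining pig members also 2 at most (PCGF5, CBX2, KMT2C and CREBBP). The mouse Dpy30 peaks were 414 and 831 bp wide, small against the median width of 3178 bp for H3K27ac peaks at coding starts.

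**Figure D4:**
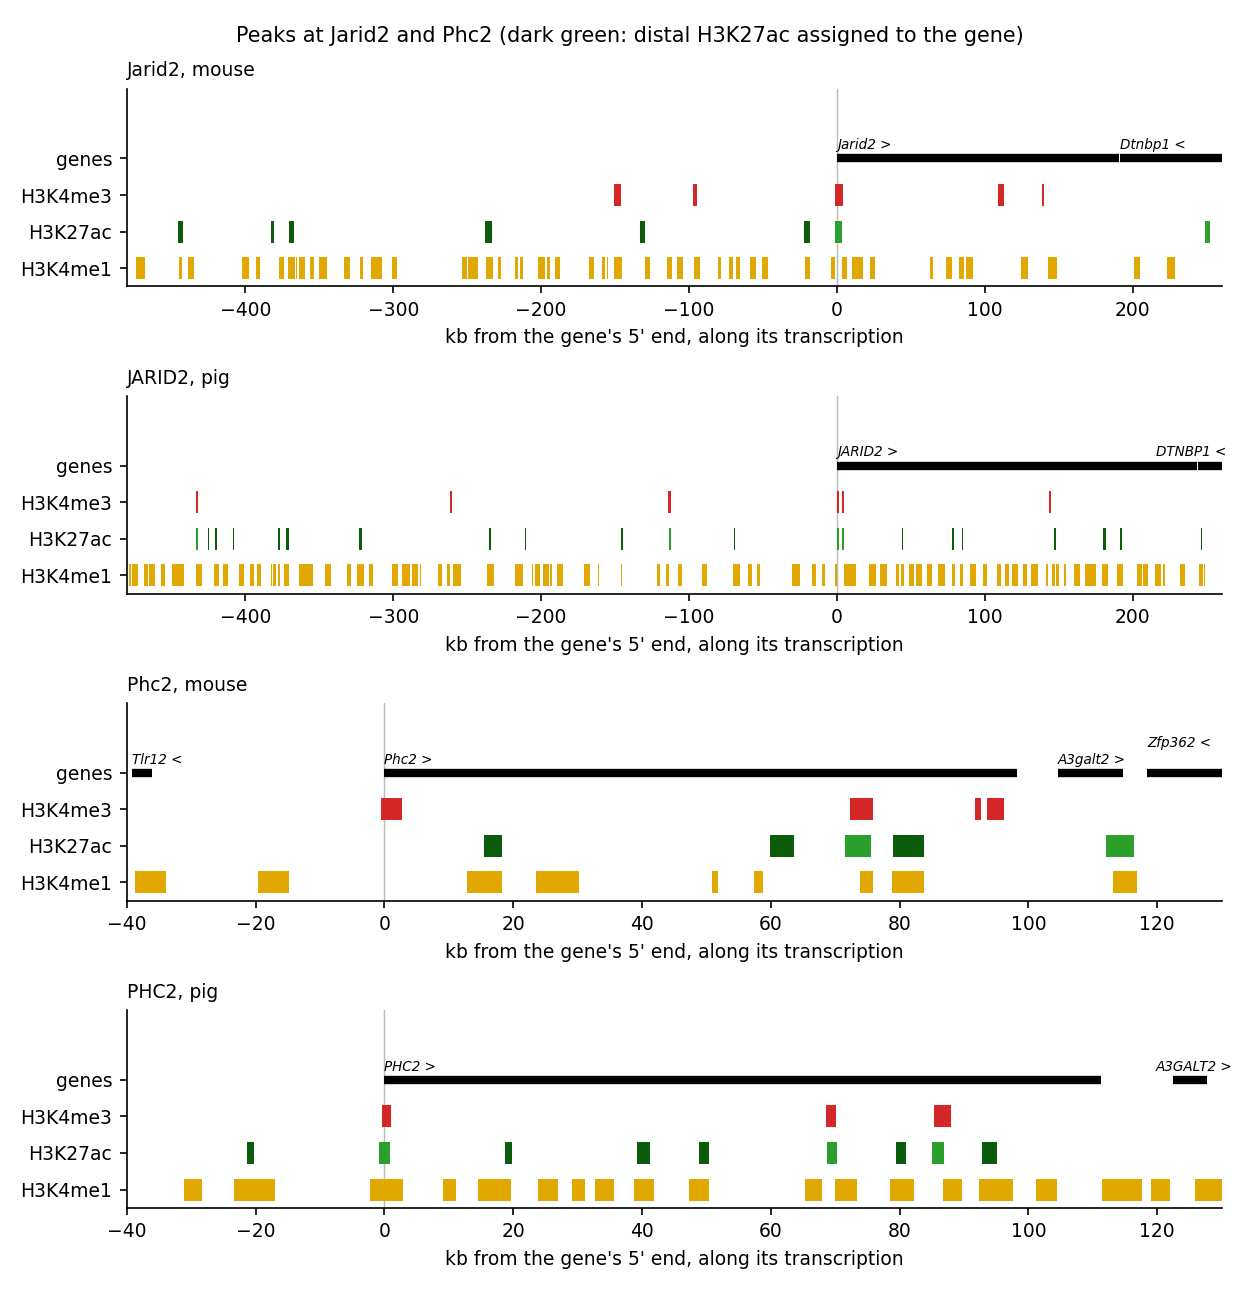
Peaks are drawn against the distance in kb from the 5′ end of Jarid2 (upper panels) or Phc2 (lower panels), with coding genes in black. Dark green boxes are the distal H3K27ac peaks assigned to the gene: 6 in mouse and 17 in pig at Jarid2, and 3 and 6 at Phc2. Upstream of Jarid2 they reach 444 kb in mouse and 425 kb in pig, inside the gene they appear in pig alone, and the outer Phc2 promoter has a light green box in pig and none in mouse.

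Mouse distal peaks at Jarid2 that had a matching sequence in pig were not called acetylated there. Of the 6 mouse distal peaks, 3 had a match within 700 kb of the pig gene (blastn, E value of 1e-10 or lower, repeats masked). No alignment of these 3 lay on a pig H3K27ac peak, and 1 of the 3 lay on pig H3K4me1. The nearest pig H3K27ac peaks were 25.4, 8.56 and 42.0 kb from them. At Phc2, 2 of 3 mouse peaks matched, and both had an alignment on a pig H3K27ac peak and on H3K4me1. For the first of these the pig stretch also had H3K4me3. For the other, the best alignment (333 bases, 73.3% identity) lay 1.47 kb from pig H3K27ac, and a further alignment of 203 bases with 70.4% identity lay on a distal pig H3K27ac peak assigned to PHC2. The matches kept their order and approximate distance. At Jarid2 the whole mouse peaks were centred at -444, -369 and -236 kb from the 5′ end. The matching pig stretches were centred at -465, -399 and -277 kb.

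The 2 Jarid2 matches with the highest identity are shown because each is acetylated in mouse and was not called so in pig. Mouse peak 1 matched from chr13:44288540-44288833 to pig chr7:10893571-10893860, the stretch that lay on pig H3K4me1, and mouse peak 4 from chr13:44496652-44496769 to chr7:11081009-11081128, all on the plus strand, from RefSeq's genomes of GRCm38.p6 and Sscrofa11.1. Capitals mark bases that are identical in the alignment, 230 in the first pair and 95 in the second.
Jarid2 peak 1 mouse: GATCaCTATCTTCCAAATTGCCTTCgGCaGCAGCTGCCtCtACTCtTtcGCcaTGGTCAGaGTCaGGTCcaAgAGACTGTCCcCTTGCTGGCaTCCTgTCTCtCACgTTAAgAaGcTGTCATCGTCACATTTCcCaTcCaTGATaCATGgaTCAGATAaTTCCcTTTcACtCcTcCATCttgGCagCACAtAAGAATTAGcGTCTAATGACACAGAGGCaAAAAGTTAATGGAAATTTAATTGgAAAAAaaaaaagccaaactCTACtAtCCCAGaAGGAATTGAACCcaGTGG
JARID2 match 1 pig: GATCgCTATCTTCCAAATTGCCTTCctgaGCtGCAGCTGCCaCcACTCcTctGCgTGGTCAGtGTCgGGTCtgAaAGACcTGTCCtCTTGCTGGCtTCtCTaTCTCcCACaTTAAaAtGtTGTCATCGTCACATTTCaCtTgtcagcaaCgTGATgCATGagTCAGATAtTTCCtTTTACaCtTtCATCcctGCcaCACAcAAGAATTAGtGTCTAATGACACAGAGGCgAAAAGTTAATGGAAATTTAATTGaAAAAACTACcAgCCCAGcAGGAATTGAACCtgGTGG
Jarid2 peak 4 mouse: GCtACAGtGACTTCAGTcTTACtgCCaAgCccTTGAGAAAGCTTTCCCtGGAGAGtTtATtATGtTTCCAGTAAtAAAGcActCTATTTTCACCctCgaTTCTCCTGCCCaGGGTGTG
JARID2 match 4 pig: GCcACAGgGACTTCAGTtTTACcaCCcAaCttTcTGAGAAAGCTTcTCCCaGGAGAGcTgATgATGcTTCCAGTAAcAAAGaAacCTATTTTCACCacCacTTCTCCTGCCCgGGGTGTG
The first pair aligned with 75.2% identity over 306 columns and the second with 79.2% over 120. No comparison with unmarked sequence was made here.

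Member promoters were rich in CpG. The observed over expected CpG ratio had a median of 0.873 over the 36 mouse windows, against 0.577 for all coding promoters and 0.759 for those with H3K4me3, and of 0.884 over the 45 pig windows, against 0.641 and 0.789. Median GC was 66.2% against 56.3% in mouse and 70.0% against 58.7% in pig, and 61.3% and 63.7% for promoters with H3K4me3. The members without H3K27ac had a median ratio of 0.905 in mouse (6 windows) and 0.910 in pig (6 windows). The pig ones ranged from 0.058 at SETD1A to 1.07. Marks were called by gene over all its starts, so a window can lie off the marked start, as at mouse Dpy30 (ratio 0.081). GGGCGG, the sequence bound by SP factors, was searched on both strands and found in 75% of the mouse member windows (46.3% of all windows) and 82.2% of the pig ones (49.9%), and among promoters with H3K4me3 in 65.3% and 67.3%. TATAAA was found in 0 member windows in either species, against 13.3% and 11.48% of all and 6.99% and 6.90% of those with H3K4me3. Mouse windows of Ash2l, Kdm6b, Kdm5a, Nsd1, Cbx2, Setd1b, Pcgf1, Kmt2b and Nsd2 were not used here.

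Members were also divided by biochemistry into 10 shared core subunits, 18 alternative subunits that exchange within a complex, and 17 other enzymes and cofactors. H3K27ac was present at 9 of 10, 13 of 18 and 17 of 17 in mouse, and at 9, 17 and 13 in pig, against 62.3% and 69.4% of coding genes with H3K4me3. The 17 pig enzymes and cofactors include SETD1A, which lacked H3K4me3. The widest 20% of H3K4me3 held 1, 4 and 6 in mouse and 1, 9 and 7 in pig. Distal H3K27ac peaks numbered 7, 12 and 4 in mouse and 3, 30 and 6 in pig, with 6 and 17 of the alternative subunits' peaks at Jarid2 alone. The median H3K4me3 percentile of the core subunits was 72.7 in mouse and 58.7 in pig, and that of the alternative subunits 58.2 and 80.0. The order of these groups was opposite in the 2 species, with no test.

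A further 40 chromatin genes that belong to the same pathways are given beside the members. H3K4me3 lay at 40 of 40 in both species, H3K27ac at 35 in mouse and 37 in pig, and H3K4me1 at 29 and 28, where 65.0% of coding genes had H3K4me3 in either species, 41.6% and 46.7% H3K27ac, and 54.7% and 61.3% H3K4me1. Those without H3K27ac were Phf1, Epop, Bcorl1, L3mbtl2 and Kat2a in mouse and PHF1, BCORL1 and KAT2A in pig. All 5 mouse cases had H3K4me3 and H3K4me1. At these genes H3K27ac was in pig alone at 2 of 40 and in mouse alone at 0. The members had 5 of 45 each way, near the shares of orthologs, 13.1% in pig alone and 9.57% in mouse alone.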

How the data were processed

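Per the labels' protocols and the design text, chromatin was fixed with 1% formaldehyde, reads were used at 50 bp (pig H3K4me3 and H3K27ac sequenced at 50 bp, the rest at 100 bp and cropped) and peaks were called in broad mode at an irreproducible discovery rate below 0.01. Builds were GRCm38/mm10 and Sscrofa11.1/susScr11. The submitters' processing notes name the aligner Bowtie2 2.3.5, with Trimmomatic 0.39 and FastQC 0.11.9 for the reads and SAMtools 1.9 and deepTools 3.5 after it. The sources used here name no peak caller. The authors deposited 6 consensus lists of peak positions with no score, signal or count, so the depth is unknown.

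Peaks were set on RefSeq's annotation of the same builds (Python 3.11.15, numpy 2.4.6) by overlap of at least 1 bp with 1 kb on each side of any annotated start. The marking code was tested on simulated peaks. Orthologs are genes with the same symbol. Promoter windows were aligned with blastn 2.17.0, and placed in pig at an E value of 1e-05 or lower within 50 kb of the gene. No test across genes was run, since each list is a single consensus. Members and gene lists were chosen with earlier results of these data known. Every member is named by its state, with values for members that lack H3K4me3 or H3K27ac or differ between species, the most distal peaks, and the widest and narrowest H3K4me3. The alternatives tried were windows of other sizes, the 5′ end alone, wider peaks, covered windows, and other rules for distal peaks.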

Additional observations from a re-analysis of the deposited data

How the results depend on the processing

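The counts of marked members by mark, species and Polycomb role, and the median H3K4me3 width, were recomputed with a window of 500 bp or 2.5 kb, with the 5′ end of the gene record as the only start, with the wider 50% of peaks, and with at least 50% of the window covered. Counts by core and alternative subunits were rerun with 2.5 kb only and distal counts under their own settings, while the widest 20% and shared peaks were not recomputed. Of 137 recomputed values 90 were called the same, 46 moved and 1 reversed. Counts and widths were called the same when unchanged or within 1.5 times. The marked shares of background genes over orthologs were judged by the binomial confidence interval of the share over all coding genes. By that rule all of these shares were called moved, although each lay within 1.5 times. H3K4me3 counts of members did not move beyond 1.5 times under any of these settings. H3K4me1 moved most: the mouse count went to 15 (500 bp), 24 (5′ end), 19 (wider peaks) and 9 (covered window), the pig count to 15, 19 (wider peaks) and 9, and the count in both species to 8, 17, 8 and 3. H3K4me1 in mouse alone became 3 (2.5 kb) and 11 (wider peaks), and in pig alone 7 (500 bp), 1 (2.5 kb), 14 (5′ end) and 11 (wider peaks). All 3 marks lay at 12 (500 bp), 19 (5′ end), 10 (wider peaks) and 6 (covered window) mouse members, and at 14, 14 (wider peaks) and 8 (covered window) pig members. The same state in both species held at 18 members with the 5′ end and 14 with wider peaks. H3K27ac in pig alone rose to 8 with the 5′ end and 13 with wider peaks. Mouse Polycomb members without H3K27ac became 11 with wider peaks, and the other mouse members without it 3 (5′ end: Kmt2d, Ash2l, Dpy30), 5 (wider peaks) and 1 (covered window: Setd1b). Pig Polycomb members without it became 3 (5′ end), 2 (wider peaks) and 2 (covered window). With the 2.5 kb window mouse Cbx7 and pig SETD1A gained H3K27ac. Read at the sequence matching the mouse promoter, an alternative chosen after seeing the data, the other pig members without H3K27ac went from 1 to 0 among the 12 that could be placed (SETD1A), and the Polycomb count was 1 of 20 either way.

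Distal totals fell to 13 in mouse and 22 in pig with wider peaks. The excess of pig over mouse, 16 peaks, became 9 within 100 kb, 9 with wider peaks and -17.0 kb as length, a reversal. Over orthologs alone, the marked share of genes was 81.9%, 52.1% and 68.9% in mouse (H3K4me3, H3K27ac, H3K4me1) and 77.9%, 55.6% and 72.4% in pig. The cause of these moves was not tested. No paired analysis was possible because each list merges its replicates, and for the same reason no replicate could be left out.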
